A study of Daucus carota with 18 samples.

Results

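The inner phloem of the carrot root was compared between 2 sets of dark purple roots, dP2 and dP1. In both sets the outer phloem was purple and the inner phloem was not, so these libraries are called NPIP (non-purple inner phloem), and POP stands for the purple outer phloem cut from these roots. The members of the comparison were the 3 dP2 and the 3 dP1 libraries labelled NPIP, 6 of the 18 libraries of the study, and the 17728 of 32113 annotated genes that reached at least 1 CPM (a read count scaled to library size) in at least 3 of the 6. Each library came from 1 field-grown root. The dP2 roots belonged to the F2 family 60807-F2, were grown at Hancock, Wisconsin, and had purple xylem. The dP1 roots belonged to a related F2 family, 7280-F2, were grown at El Centro, California, and had xylem without purple colour. Family, growing site and xylem colour thus changed together with set and cannot be told apart. Another set, pP, with pale purple outer phloem, came from the dP1 family and site.

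Anthocyanins are the purple pigments of carrot. Their synthesis starts with the phenylpropanoid enzymes phenylalanine ammonia-lyase (PAL) and 4-coumarate:CoA ligase (4CL), which also feed lignin and other phenolics. Chalcone synthase (CHS) then commits carbon to flavonoids, and later enzymes, MYB and bHLH regulators and vacuolar transporters complete the pigment. The inner phloem lies between the outer phloem and the xylem, and transports and stores sugar.

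The 6 libraries held 7994328 to 8875733 expected counts each, and their levels are given as CPM scaled by TMM, a normalisation of edgeR, over all 18 libraries. A read was found for 21358 to 21922 genes in dP2 and for 20534 to 20837 in dP1. Correlations of log2 CPM were 0.919 to 0.951 within dP2, 0.948 to 0.969 within dP1 and 0.768 to 0.824 between the sets. Each dP1 library correlated at 0.912 to 0.940 with the pP NPIP libraries, which have the same family and site. The first principal component took 75.1% of the variance and separated dP2 from dP1, as the plot of the libraries shows.

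**Figure D1:**
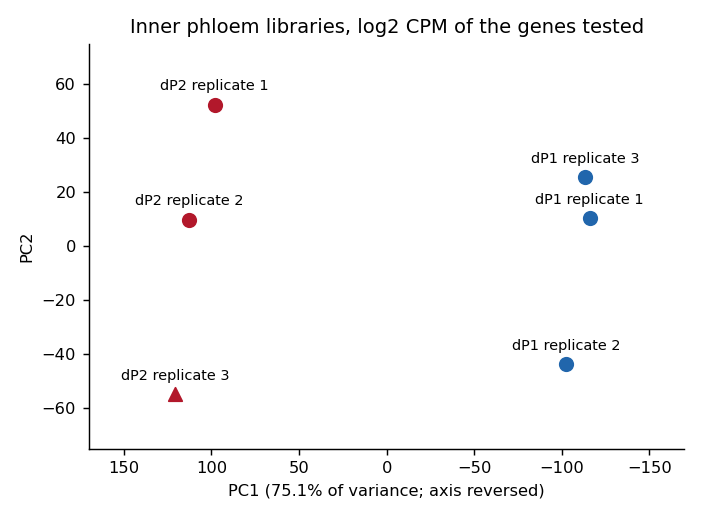
Principal components 1 and 2 of log2 CPM over the 17728 genes tested, 1 point per inner phloem library, with dP2 in red on the left and dP1 in blue on the right (the PC1 axis is reversed). The sets separate on PC1, and dP2 replicate 3 (triangle) and dP1 replicate 2 lie lowest on PC2.

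Replicate 3 of dP2 NPIP stood apart from its set. In this library 760 genes were higher than in both other dP2 libraries by more than 1 on the log2(CPM + 1) scale and 364 were lower, against 312 and 538 in replicate 1 and 249 and 259 in replicate 2. In dP1, replicate 2 had the largest number of such higher genes, 633. By more than 2 on this scale, 138 genes were higher and 44 lower in dP2 replicate 3. In dP1 replicate 2 these numbers were 175 and 56, and in dP2 replicate 1 they were 42 and 98. Replicate 3 also correlated more highly with the 3 dP2 POP libraries, at 0.859 to 0.893, than replicate 1 (0.781 to 0.849) and replicate 2 (0.820 to 0.835) did. The level of POP genes was followed with 71 genes that the study listed as changed between POP and NPIP and that were higher in every POP than in every NPIP library of pP. Their summed level was 442, 586 and 1161 CPM in dP2 NPIP replicates 1, 2 and 3, against 138 to 179 CPM in the dP1 NPIP. In the POP it was 3153 to 4024 CPM in dP2 and 1565 to 1914 CPM in dP1. By the test given below, 21 of the 40 tested were called higher in dP2 NPIP and 4 lower. Of 20 listed genes lower in every POP than in every NPIP library of pP, 9 were called higher and 2 lower. Over all genes tested, 20.3% were called higher and 18.2% lower. The study drew its lists from libraries that include the present ones. Members near silent in dP1 passed the filter only through dP2, which favours a higher call. The 21 of 40 are thus no independent evidence. Of the 71, between 5 (replicate 3) and 13 had no read in a dP2 library, against 16 to 23 in a dP1 library. The results below are therefore given with replicate 3 and, where it changed a call, without it. The part of POP transcripts in any difference between the sets was not tested.

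At a false discovery rate (FDR, Benjamini-Hochberg adjusted p) under 0.05 in the quasi-likelihood test of edgeR, 3603 genes were higher and 3220 lower in dP2 NPIP than in dP1 NPIP. This is 38.5% of the genes tested, 20.3% higher and 18.2% lower. The median size of a called change was 1.62 on the log2 scale, whereas the median log2 fold change (log2FC, dP2 over dP1) of all genes tested was 0.03. Large changes were more often higher in dP2, with 837 genes called at a log2FC of at least 4 and 261 at −4 or less. Without dP2 replicate 3, 3273 genes were higher and 2904 lower (34.8% of the genes tested), and 5631 of the 6823 calls were made again. The library with the strongest effect on the counts was dP1 replicate 1, without which 2404 genes were higher and 2069 lower. Without dP2 replicate 2, 2787 were higher and 2104 lower. All 6 fits without 1 library kept 3976 of the calls, 2188 higher and 1788 lower.

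**Figure D2:**
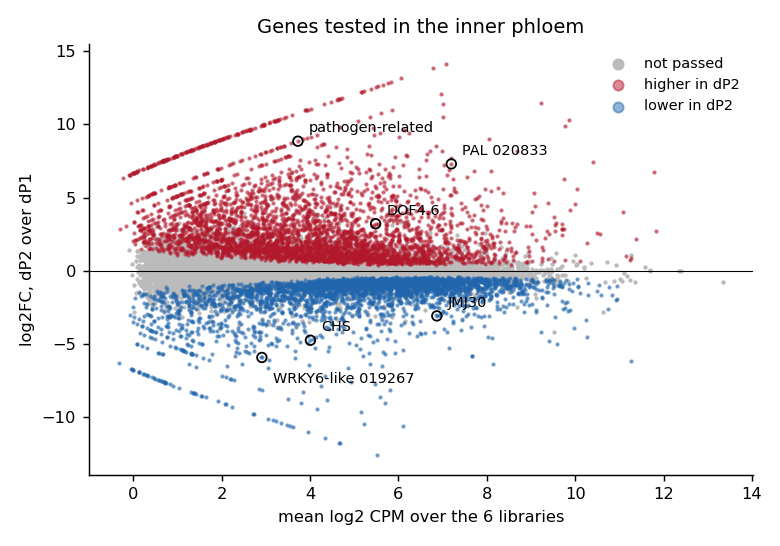
Each point is 1 of the 17728 genes tested in the inner phloem, with its mean log2 CPM over the 6 libraries on the x axis and its log2FC of dP2 over dP1 on the y axis. Genes with an FDR under 0.05 are red (3603 higher in dP2) or blue (3220 lower), the rest are grey, and the slanted rows of points are genes with 0 or few reads in 1 set.

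The same test between pP and dP1 NPIP, which share family and site, called 102 genes higher (0.602%) and 95 lower (0.561%) in pP, 1.16% of 16942 genes. Of 17807 genes tested between dP2 and pP NPIP, 2785 were higher (15.6%) and 2447 lower (13.7%) in dP2, 29.4% in all. These comparisons share the dP1 or the dP2 libraries with the main comparison and are no separate evidence. In DESeq2 the count between pP and dP1 was larger, 831 higher and 661 lower in pP. In edgeR it was 0 without dP1 replicate 1 (2282 genes at an unadjusted p under 0.05), 9 without dP1 replicate 3, 118 without dP1 replicate 2, and 15, 67 and 27 without pP replicates 1, 2 and 3. Between dP2 and pP, 1687 genes were higher and 1416 lower without pP replicate 1, 1626 were lower without pP replicate 3 and 1284 without dP2 replicate 2.

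Among 14 of the structural genes of the anthocyanin pathway that the study names, the early phenylpropanoid genes were higher and CHS was lower in dP2. The study also names leucoanthocyanidin dioxygenase, whose printed gene ID lacks a digit, and the acyltransferase DcSCPL1. Neither is among the 14, so these steps were not assessed. Of the 11 genes tested, 6 rose and 1 fell, and 4 did not pass, beside 38.5% of all genes tested called (20.3% higher and 18.2% lower). Without dP1 replicate 1 or 3, 2 rose and 1 fell. Their median log2FC was 3.43, beside 0.03 over all genes. All 3 PAL and both 4CL genes rose. Of the 6 later-pathway genes tested, F3H DCAR_010572 rose, CHS fell and 4 did not pass. The study listed these genes for their difference between POP and NPIP in the same libraries, so the list is no independent sample of genes.

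The PAL gene DCAR_020833 had 43.5, 102 and 718 CPM in dP2 replicates 1, 2 and 3, against 2.34, 2.15 and 0.94 CPM in dP1. PAL removes ammonia from phenylalanine, the entry to all phenylpropanoids. Every dP2 library was above every dP1 library, and replicate 3 was the highest. The edgeR estimate was a log2FC of 7.31 (SE 1.30, FDR = 0.00632), and 5.31 (SE 0.53, FDR = 0.00307) without replicate 3. For the PAL gene DCAR_014989, levels were 19.2, 37.5 and 269 CPM in dP2, against 2.73, 3.83 and 2.58 CPM in dP1, a difference of 5.15 on the log2 scale (SE 1.11, edgeR FDR = 0.0123). The third PAL gene, DCAR_017697, had 6.38, 8.21 and 73.2 CPM in dP2, against 1.82, 3.47 and 2.82 CPM in dP1 (log2FC 3.43, SE 1.04, FDR = 0.0388 from edgeR). Compared per transcript length, DCAR_020833 was the most abundant of the 3 in dP2, with a mean level of 126 ± 163 TPM, and the least abundant in dP1, with 0.84 ± 0.30 TPM (SD, n = 3). The large SD in dP2 was set by replicate 3.

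The 4CL enzymes activate 4-coumarate for the branches that follow. DCAR_021385 had 19.5, 42.8 and 296 CPM in dP2, against 3.38, 4.07 and 3.05 CPM in dP1. Its log2FC was 5.09 (SE 1.11, FDR = 0.0128 from edgeR). DCAR_025617 was lower in level, with 4.82, 5.77 and 38.6 CPM in dP2, against 0.39, 0.96 and 0.59 CPM in dP1 (log2FC 4.63, SE 1.03, FDR = 0.0135 from edgeR). Without dP2 replicate 3, the median log2FC of these 5 genes was 3.14 in place of 5.09, and all 5 passed. Without dP1 replicate 1 or replicate 3, DCAR_020833 alone passed; DCAR_014989 and both 4CL genes then had an FDR of 0.0507 to 0.0542, and DCAR_017697 had one of 0.0818 to 0.119 without any 1 dP1 library.

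CHS (DCAR_030786) was at 0.45, 0.44 and 2.50 CPM in dP2, against 4.93, 63.1 and 22.7 CPM in dP1. The sets did not overlap, and the dP1 libraries differed among themselves by more than 10 times. Its log2FC was −4.73 (SE 1.12, FDR = 0.0173 from edgeR), with an FDR of 0.0534 and 0.0605 without dP2 replicate 1 or 2. F3H converts flavanones to dihydroflavonols, and its copy DCAR_010572 lies at 25684635 to 25689703 of chromosome 3 (carrot assembly v2.0). It had 24.1, 40.3 and 33.7 CPM in dP2, against 1.17, 3.35 and 1.995 CPM in dP1. The 3 dP2 libraries were alike here, replicate 3 included, and all lay above dP1 (log2FC 3.89, SE 0.42, FDR = 0.00155 from edgeR). The call held without any 1 library. In pP NPIP, of the dP1 family and site, this gene had 12.6, 4.10 and 34.2 CPM, which overlapped dP2. Between dP2 and pP NPIP it did not pass (log2FC 0.93, SE 0.68, FDR = 0.338 from edgeR). The other F3H gene, DCAR_009483, was at 0 to 0.78 CPM in dP2 and 0.13 to 6.10 CPM in dP1 and was below the filter.

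The other later steps among the 14 genes were low in both sets. F3'H (DCAR_014032), which adds the second B-ring hydroxyl of cyanidin, had 1.12, 1.44 and 4.43 CPM in dP2, against 6.49, 9.09 and 4.93 CPM in dP1 (log2FC −1.55, SE 0.58, FDR = 0.0743 from edgeR). It passed without dP2 replicate 3 (log2FC −2.41, SE 0.44, FDR = 0.0118). Dihydroflavonol reductase (DFR, DCAR_021485), with 2.11 to 2.73 CPM in dP2 and 2.47 to 7.90 CPM in dP1, did not pass (log2FC −0.99, SE 0.47, FDR = 0.139 from edgeR). Nor did the cyanidin galactosyltransferase DcUCGalT1 (DCAR_009912, 1.12 to 2.04 CPM in dP2 and 0 to 7.06 CPM in dP1) or the xylosyltransferase-type gene DcUCGXT1 (DCAR_021269, 0.90 to 1.997 CPM in dP2 and 0.26 to 5.62 CPM in dP1), with an FDR of 0.602 and 0.582. The highest dP1 value of DFR and of both glycosyltransferases was in replicate 2. Chalcone isomerase (DCAR_027694) and the glycosyltransferase DCAR_019074 were below the filter.

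**Figure D3:**
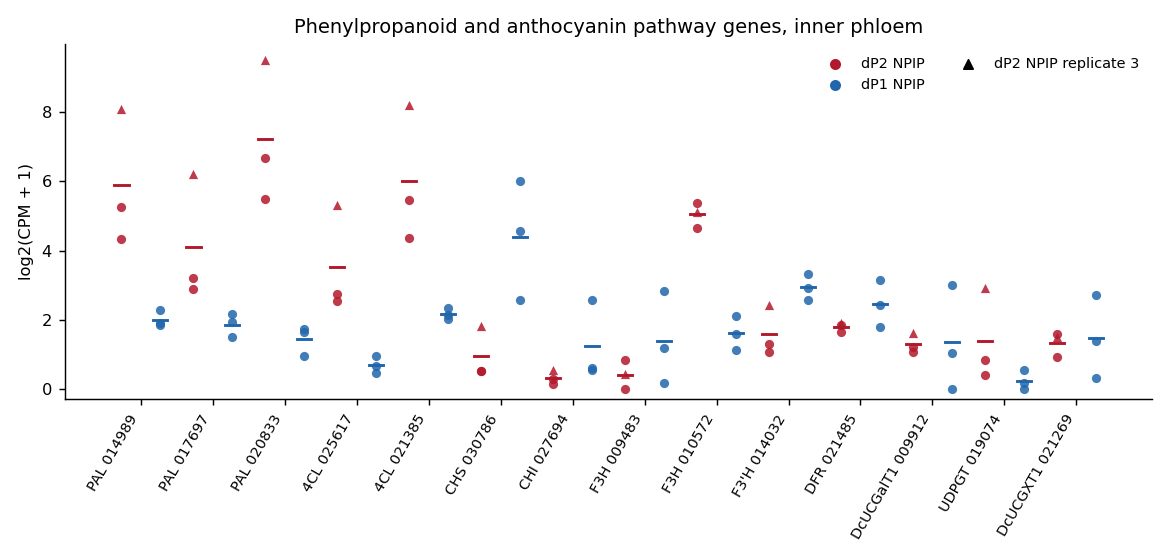
Level of the 14 structural genes in the inner phloem, as log2(CPM + 1), 1 point per library and a bar for the mean of 3, with dP2 in red to the left of dP1 in blue for each gene and dP2 replicate 3 as a triangle. The 5 PAL and 4CL genes are higher in all dP2 libraries and highest in replicate 3, F3H DCAR_010572 is higher in dP2 without a split, and CHS is lower in dP2.

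In dP2 replicate 3, the PAL and 4CL genes had a larger share of their level in the POP of the same root than in replicates 1 and 2. Later genes varied. Of the level in that POP, replicate 3 had 38.5% for PAL DCAR_014989, 11.96% for DCAR_017697, 41.4% for DCAR_020833, and 54.2% and 44.5% for the 4CL genes DCAR_025617 and DCAR_021385. In dP2 replicates 1 and 2 these 5 genes had 0.79% to 6.51% of the level in the POP of their own root. For CHS the share was 0.53% in replicate 3, beside 0.23% and 0.12% in replicates 1 and 2. Chalcone isomerase reached 0.53% in replicate 3, DcUCGalT1 1.06% and the glutathione transferase DcGST1 0.53% in the same library. F3H DCAR_010572 had 39.4% there, beside 44.0% and 29.1% in replicates 1 and 2, the glycosyltransferase DCAR_019074 had 18.9% and F3'H 8.77%. The library also had 27.6% of the POP level for the MYB C1-like gene DCAR_003717, beside 1.38% and 2.57% in replicates 1 and 2. For DcbHLH3 it had 1.43%, beside 1.13% and 1.33%. For DcMYB7 it had 42.6%, beside 18.6% and 3.79%. These DcMYB7 shares rest on 9 reads in replicate 3 and on 4 and 1 in replicates 1 and 2. Its POP level was also low, at 2.40 CPM in the root of replicate 3.

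Of the 10 described genes farthest above both other dP2 libraries in replicate 3, which are given as values with no test, 5 were the PAL and 4CL genes. The others were regulators. WRKY75 (DCAR_024663) had 4.82, 5.33 and 30.8 CPM in dP2 replicates 1, 2 and 3, and bHLH92 (DCAR_027275) had 1.12, 2.77 and 16.7 CPM. WRKY22 (DCAR_005574) had 1.01, 0.55 and 7.49 CPM, the MYB330-like gene DCAR_001079 had 4.93, 3.44 and 22.03 CPM, and WRKY41 (DCAR_005034) had 4.48, 13.0 and 52.9 CPM. All 10 were also at 16.8 CPM or more in each dP2 POP library. Of the 6823 calls, 1192 ended without replicate 3 and 546 others began. Among the described genes, 6 calls ended, those of the transporter DTX14 (FDR = 0.0545 without it), bHLH120 (0.0603), WRKY41 DCAR_005034 (0.0577), HAT7 (0.0850), AS1 (0.0935) and the MYB C1-like gene (0.105). Calls began for actin (0.0371), KNAT7 (0.0418) and F3'H.

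**Figure D4:**
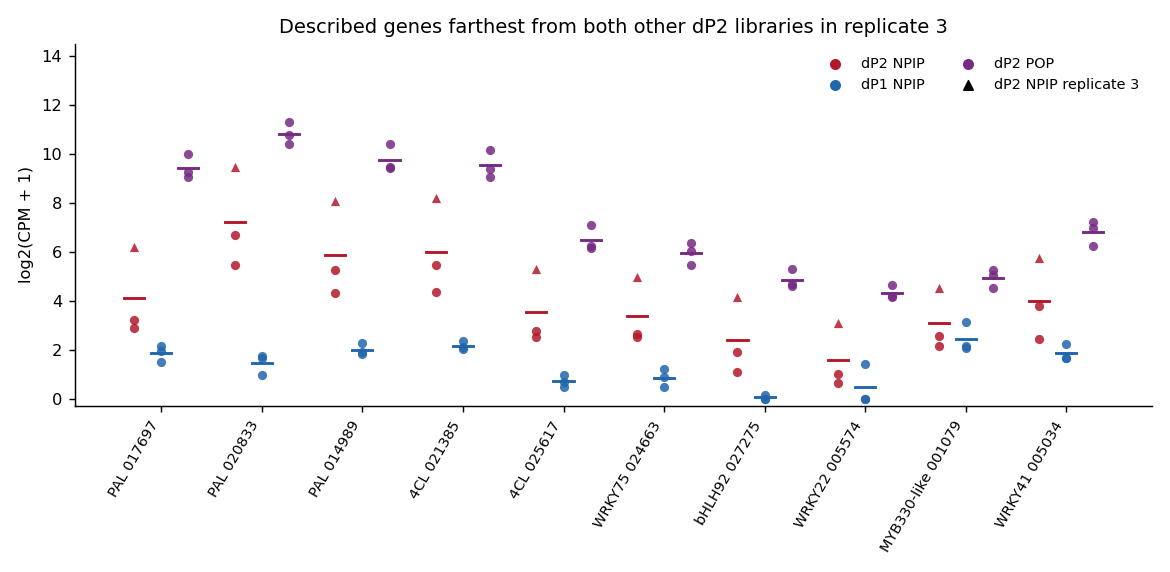
Level as log2(CPM + 1) of the 10 described genes farthest above both other dP2 NPIP libraries in replicate 3 (triangle), with dP2 NPIP in red, dP1 NPIP in blue and dP2 POP in purple, 1 point per library and a bar for the mean of 3. Replicate 3 lies between the other dP2 NPIP libraries and the dP2 POP libraries in 9 of the 10 genes, and reaches the lowest dP2 POP library in MYB330-like.

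Of 9 regulators discussed in the study, 5 were tested, 2 rose and 1 fell, beside 20.3% of all genes tested called higher and 18.2% lower. DcMYB113, an activator of the pathway in other purple carrots, had 1.12, 4.66 and 1.82 CPM in dP2 under the gene ID of the study's primer list, DCAR_008994, and no read in dP1. This is at least 21.7-fold higher in dP2, against 3 reads over the dP1 group (FDR = 0.0128 from edgeR). The study's text gives DcMYB113 another ID, DCAR_008894, which had 11.1 to 13.3 CPM in dP2 and 7.54 to 10.6 CPM in dP1 and did not pass (log2FC 0.52, SE 0.24, FDR = 0.125 from edgeR). The MYB C1-like gene DCAR_003717, named for the maize activator C1, had 2.24, 1.55 and 10.8 CPM in dP2, against 0, 0.24 and 0.82 CPM in dP1 (log2FC 3.70, SE 1.15, FDR = 0.0424 from edgeR). Its call ended without dP2 replicate 3 or any 1 dP1 library (FDR = 0.0531 to 0.107). The MADS-box gene DCAR_010757 of chromosome 3 (28112767 to 28119898) had 0.34, 0.44 and 0.57 CPM in dP2, against 2.99, 3.35 and 1.53 CPM in dP1. It fell by 2.51 on the log2 scale (SE 0.48, edgeR FDR = 0.00827), without overlap of the sets.

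The 6 other regulators gave no call. DcMYB7 (DCAR_010745), an activator mapped to the same chromosome region, had 0.45, 0.11 and 1.02 CPM in dP2, against 0, 3.71 and 1.06 CPM in dP1 (log2FC −1.58, SE 1.25, FDR = 0.349 from edgeR). The MYB330-like gene did not pass (log2FC 1.08, SE 0.77, edgeR FDR = 0.302). DcMYB6 (at most 1.02 CPM in dP2 and 2.99 CPM in dP1), DcbHLH3 (at most 0.23 CPM in dP2 and 2.75 CPM in dP1), DcERF1 (at most 4.66 CPM in dP2 and 0.36 CPM in dP1) and the MYB5-like gene were below the filter. No read of the MYB5-like gene was found in either set.

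Of the 4 transport genes, 2 were tested. The MATE carrier DTX14 (DCAR_010718), of a family that moves flavonoids and other solutes, had 18.8, 29.4 and 26.3 CPM in dP2, against 9.999, 15.3 and 11.03 CPM in dP1. It rose by 1.03 on the log2 scale (SE 0.27, edgeR FDR = 0.0233), a call that ended without dP1 replicate 1 or 3 or dP2 replicate 2 or 3 (FDR = 0.0545 to 0.0814). The ABC-C transporter DCAR_010639 had 9.32 to 10.8 CPM in dP2 and 3.17 to 18.8 CPM in dP1 (log2FC 0.01, SE 0.58, FDR = 0.994 from edgeR). DcGST1 and the MATE gene DCAR_031151 were at 0.68 CPM or less in every dP2 library and were not tested.

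The sucrose invertase DCAR_009482, which splits sucrose into glucose and fructose, was low in dP2 NPIP, with 0.45, 0.55 and 1.14 CPM, against 8.31, 6.34 and 7.16 CPM in dP1. The sets were well apart, and the log2FC was −3.33 (SE 0.43, FDR = 0.00243 from edgeR). Actin (DCAR_030967), the reference gene of the study's PCR, had 525, 545 and 671 CPM in dP2, against 872, 863 and 754 CPM in dP1 (log2FC −0.52, SE 0.18, FDR = 0.0557 from edgeR).

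Of the 6 vascular marker genes, 4 rose and none fell in dP2, beside 20.3% of all genes tested called higher. APL DCAR_019908 and KNAT7 did not pass, and 5 of the 6 (all but KNAT7) were without overlap between the sets, beside 28.4% of all genes tested with every dP2 library above every dP1 library. APL is a MYB-type protein required for phloem identity in Arabidopsis. Its homolog DCAR_009660 had 20.4, 39.9 and 25.4 CPM in dP2, against 4.42, 10.2 and 7.86 CPM in dP1 (log2FC 1.92, SE 0.39, FDR = 0.0102 from edgeR). The homolog DCAR_019886 had 27.9, 36.1 and 24.8 CPM in dP2, against 12.3, 10.2 and 12.8 CPM in dP1 (log2FC 1.32, SE 0.22, FDR = 0.00501 from edgeR). DCAR_019908 had 12.9, 10.3 and 8.18 CPM in dP2, against 3.12, 5.74 and 7.63 CPM in dP1 and did not pass (log2FC 0.92, SE 0.38, FDR = 0.0981 from edgeR). Replicate 3 was not the highest dP2 library in any of the 3. In dP2, these 3 genes summed to 58.4 to 86.3 CPM in the NPIP and to 5.76 to 12.3 CPM in the POP. DOF4.6 was also higher in the NPIP of dP2 (mean 79.7 CPM, against 11.9 CPM in the POP), whereas KNAT7 and IRX15-LIKE together were higher in the POP. All 6 marker genes are on the study's lists of genes changed between POP and NPIP. The markers are thus no independent sample of genes.

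DOF4.6 (DCAR_006979), a zinc finger factor expressed in vascular cells of Arabidopsis, was at 75.3, 71.7 and 92.2 CPM in dP2, against 4.67, 11.8 and 8.92 CPM in dP1. It was among the largest changes of well-expressed described genes (log2FC 3.22, SE 0.35, FDR = 0.00155 from edgeR). IRX15-LIKE (DCAR_010869) takes part in xylan deposition in secondary walls. It had 3.58, 1.44 and 4.09 CPM in dP2 and 0.13, 0.12 and 0 CPM in dP1. With 2 reads in all of dP1, the ratio of read shares was 38.7 (95% exact interval 10.4 to 325, counting error alone; FDR = 0.00449 from edgeR). KNAT7 (DCAR_008430), a homeobox regulator of secondary walls in Arabidopsis, had 3.25, 3.66 and 1.36 CPM in dP2, against 0.65, 1.56 and 0.59 CPM in dP1 (log2FC 1.54, SE 0.57, FDR = 0.0730 from edgeR). The summed level of KNAT7 and IRX15-LIKE was 5.10 to 6.83 CPM in dP2 NPIP and 0.59 to 1.67 CPM in dP1 NPIP. In the POP it was higher, at 28.3 to 43.6 CPM in dP2 and 8.90 to 18.9 CPM in dP1. Across dP2 NPIP replicates 1, 2 and 3 it was 6.83, 5.10 and 5.45 CPM, highest in replicate 1. The summed level of the 71 POP genes was highest in replicate 3. IRX15-LIKE is also one of the genes that the study listed as changed between POP and NPIP. In tissue cut from whole roots, more cells of a type and more RNA per cell cannot be told apart. The part of xylem cells or of POP transcripts in these differences was not tested.

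Of the 6 clock and heat genes, 5 were tested, 2 rose and 1 fell, beside 38.5% of all genes tested called, so this small count is not a result about the list. Without dP1 replicate 1 or 3 or dP2 replicate 2, 1 rose and 1 fell. JMJ30 (DCAR_002041), a histone demethylase linked to the circadian clock in Arabidopsis, had 28.3, 29.0 and 16.6 CPM in dP2, against 282, 145 and 192 CPM in dP1. Its log2FC was −3.07 (SE 0.34, FDR = 0.00159 from edgeR). JMJ30 was the most reduced of the described genes whose mean log2 CPM reached 3 and whose call held without any 1 library. This limit leaves out larger falls, among them those of CHS, the invertase DCAR_009482 and the WRKY6 gene DCAR_019267 described below. PCL1 (DCAR_017856), a clock protein also called LUX in Arabidopsis, had 38.3, 45.7 and 15.4 CPM in dP2, against 6.75, 13.6 and 11.3 CPM in dP1. The call of PCL1 (log2FC 1.64, SE 0.46, edgeR FDR = 0.0291) did not pass without dP1 replicate 1 or 3 or dP2 replicate 1 or 2 (FDR = 0.0686 to 0.0894). The heat shock factor HSF24 (DCAR_010894) had 20.8, 57.7 and 76.0 CPM in dP2, against 6.23, 9.45 and 7.16 CPM in dP1 (log2FC 2.75, SE 0.49, FDR = 0.00631 from edgeR). HsfA4c (3.36, 6.77 and 24.0 CPM in dP2, 2.08 to 2.63 CPM in dP1) was just above the threshold (FDR = 0.0513 from edgeR), and HsfC1a had an FDR of 0.204. DREB2C, a dehydration and heat response factor, was at 0, 0.22 and 2.73 CPM in dP2, against 0.13, 0.24 and 0 CPM in dP1, and was below the filter.

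**Figure D5:**
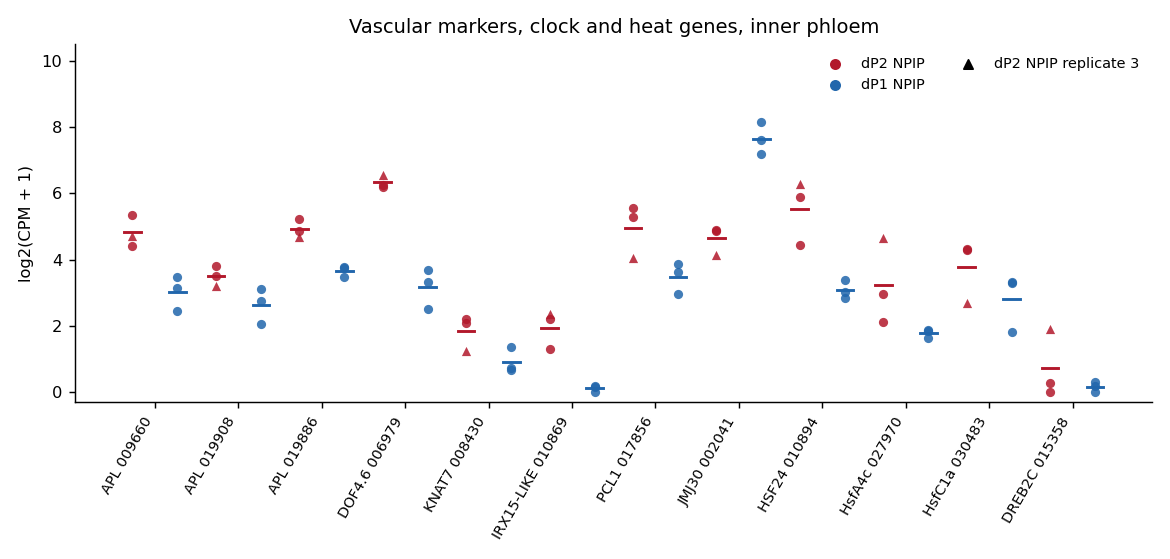
Level of 6 vascular markers (left) and 6 clock and heat genes (right) in the inner phloem, as log2(CPM + 1), 1 point per library and a bar for the mean of 3, with dP2 in red to the left of dP1 in blue and dP2 replicate 3 as a triangle. APL, DOF4.6 and IRX15-LIKE are higher in every dP2 library, and JMJ30 is lower in every dP2 library.

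On chromosome 3, the study mapped pigmentation to regions P1, P3 and RIPAP, the last for the inner phloem, and listed genes there that changed between POP and NPIP. Of the P1 genes tested in the inner phloem, 9 of 44 rose and 13 fell in dP2. In P3, 19 of 40 rose and 4 fell, with a median log2FC of 1.19, beside 0.03 over all genes. In RIPAP outside P3, 5 of 39 rose and 10 fell, and 6 fell without dP2 replicate 2. In all, 22 of the P1 genes, 57.5% of the P3 genes and 38.5% of the RIPAP genes were called, beside 38.5% of all genes tested. The study drew these lists from libraries that include the present ones. A region bias cannot be told apart from the choice of genes.

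The largest described change lay in P3. DCAR_010700 encodes a pathogen-related protein (27312869 to 27314685) and had 28.7, 23.1 and 25.2 CPM in dP2, against 0, 0 and 0.12 CPM in dP1. The dP1 group held 1 read, for a ratio of 656 (95% exact interval 117 to 25960; FDR = 0.000499 from edgeR). The plastidial pyruvate kinase DCAR_010645 of glycolysis (26620833 to 26625680) had 8.06, 6.77 and 13.97 CPM in dP2, against 2.99, 2.99 and 2.58 CPM in dP1 (log2FC 1.74, SE 0.36, FDR = 0.0108 from edgeR). The ribose-phosphate pyrophosphokinase DCAR_010690, which makes a precursor of nucleotides, had 51.3, 70.0 and 28.2 CPM in dP2, against 7.53, 11.8 and 13.97 CPM in dP1 (log2FC 2.15, SE 0.39, FDR = 0.00678 from edgeR). These 3 genes were without overlap between the sets and passed without any 1 library.

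In P1, the chloroplast Nudix hydrolase 19 (DCAR_009201), of NADH pyrophosphatase type, had 40.2, 41.7 and 72.7 CPM in dP2, against 18.6, 11.8 and 11.2 CPM in dP1 (log2FC 1.89, SE 0.33, FDR = 0.00589 from edgeR). The GDPDL2-type phosphodiesterase DCAR_009118 had 2.13, 3.88 and 10.9 CPM in dP2 and no read in dP1, at least 47.8-fold higher (FDR = 0.0106 from edgeR). In RIPAP outside P3, the UNC93-like gene DCAR_010563 had 1.79, 3.33 and 4.202 CPM in dP2, against 8.31, 11.5 and 4.93 CPM in dP1. It fell by 1.41 on the log2 scale (SE 0.46, FDR = 0.0483 from edgeR), and did not pass without dP1 replicate 1 or 2 or dP2 replicate 1 or 2 (FDR = 0.111 to 0.133).

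The study also listed transcription factor genes that changed between POP and NPIP in these libraries. Of its 45 MYB, WRKY, bHLH, ERF and NAC genes, 22 were tested, 12 rose and 2 fell, with a median log2FC of 1.95, beside 38.5% of all genes tested called (20.3% higher) and a median of 0.03. Without replicate 3 of dP2, 9 rose and 1 fell. Without dP1 replicate 1, 2 WRKY genes rose and 1 fell, 6 MYB genes rose and 0 fell, and 0 bHLH and 0 ERF genes passed in edgeR. The 23 others were below the filter, among them both NAC genes. Genes near silent in dP1 passed the filter only through dP2, which favours a higher call, so these counts are no independent evidence. Of 6 WRKY genes tested, 4 rose and 1 fell. WRKY6 of Arabidopsis acts in senescence and phosphate supply, and 2 carrot genes described as WRKY6 went opposite ways. DCAR_004233 had 48.3, 88.5 and 128 CPM in dP2, against 2.99, 2.39 and 2.58 CPM in dP1 (log2FC 5.05, SE 0.42, FDR = 0.000812 from edgeR). DCAR_019267 had 0.45, 0.22 and 0 CPM in dP2, against 25.2, 9.81 and 7.86 CPM in dP1 (log2FC −5.91, SE 0.86, FDR = 0.00339 from edgeR). Both were without overlap and passed without any 1 library. Another gene described as WRKY6, DCAR_019758, gave no call. RSEM splits reads shared between like copies, which limits how far such genes can be separated.

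WRKY41 DCAR_027713, with 4.82, 8.77 and 29.0 CPM in dP2 and 0.65, 1.08 and 0.82 CPM in dP1, rose by 4.03 on the log2 scale (SE 0.77, edgeR FDR = 0.00827). Its copy DCAR_005034 rose by 3.13 (SE 0.90, FDR = 0.0332 from edgeR), a call lost without replicate 3 of dP2 or any 1 dP1 library (FDR = 0.0577 to 0.103). WRKY75 rose by 3.99 (SE 0.93, FDR = 0.0166 from edgeR), with an FDR of 0.0605 without dP1 replicate 1. In each of these 3 genes, replicate 3 was the highest dP2 library.

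Of 11 MYB genes tested, 7 rose and 1 fell, beside 20.3% of all genes tested called higher and 18.2% lower. MYB4 represses phenylpropanoid genes in Arabidopsis, and 3 carrot genes described as Myb4 rose. DCAR_012548 (chromosome 3, 48190456 to 48192852) had 25.4, 17.3 and 58.4 CPM in dP2, against 0.13, 0.36 and 0 CPM in dP1 (log2FC 7.57, SE 0.85, FDR = 0.00168 from edgeR). DCAR_018481 had 36.3, 43.5 and 112 CPM in dP2, against 1.30, 0.36 and 2.58 CPM in dP1 (log2FC 5.48, SE 0.76, FDR = 0.00290 from edgeR). The third, DCAR_030745, rose by 1.98 (SE 0.48, FDR = 0.0184 from edgeR). Another gene described as Myb4, DCAR_013728, gave no call. MYB108 (DCAR_030168), a stress-related MYB of Arabidopsis, had 13.3, 15.0 and 52.5 CPM in dP2, against 2.99, 1.32 and 2.23 CPM in dP1 (log2FC 3.62, SE 0.67, FDR = 0.00724 from edgeR). AS1 (DCAR_009227), of leaf polarity in Arabidopsis, fell by 1.51 on the log2 scale (SE 0.46, FDR = 0.0391 from edgeR). It did not pass without any 1 dP1 library, or without dP2 replicate 2 or 3 (FDR = 0.0544 to 0.117).

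Of 3 bHLH genes tested, bHLH120 (DCAR_021251) rose, with 1.46, 8.99 and 6.13 CPM in dP2, against 0.52, 0.36 and 1.29 CPM in dP1 (log2FC 2.89, SE 0.79, FDR = 0.0280 from edgeR). The call ended without dP1 replicate 1 or 2 or dP2 replicate 2 or 3 (FDR = 0.0603 to 0.0928). No ERF gene passed among 2 tested in edgeR, both with an unadjusted p above 0.05.

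The 26 other genes of the study's transcription factor list held 21 tested, 10 higher and 2 lower, DOF4.6, PCL1, HSF24 and JMJ30 among them, beside 20.3% and 18.2% of all genes tested. Without dP1 replicate 1, 6 were higher and 2 lower. bHLH92 is in this list too. With 1 read in all of dP1, its ratio of read shares was 174 (95% exact interval 30.9 to 6915; FDR = 0.0142 from edgeR), a call that ended without any 1 dP1 library (FDR = 0.0524 to 0.0551). ASIL2 (DCAR_022336), a trihelix factor that represses seed genes in Arabidopsis, had 98.9, 71.6 and 54.6 CPM in dP2, against 13.1, 14.7 and 14.3 CPM in dP1 (log2FC 2.41, SE 0.25, FDR = 0.00134 from edgeR). The fasciclin-like protein FLA10 (DCAR_016030), of the cell wall, had 24.1, 48.8 and 88.5 CPM in dP2, against 6.23, 5.14 and 5.399 CPM in dP1 (log2FC 3.26, SE 0.49, FDR = 0.00365 from edgeR). The alpha subunit of chloroplast acetyl-CoA carboxylase (DCAR_013625), for fatty acid synthesis, had 34.6, 32.6 and 50.6 CPM in dP2, against 6.62, 14.1 and 9.04 CPM in dP1 (log2FC 1.98, SE 0.34, FDR = 0.00562 from edgeR). The zinc finger gene C3H17 (DCAR_000675) fell, with 49.7, 25.5 and 24.1 CPM in dP2, against 202, 264 and 203 CPM in dP1 (log2FC −2.75, SE 0.33, FDR = 0.00197 from edgeR). ASIL2, FLA10, the carboxylase subunit and C3H17 passed without any 1 library. Over the 111 genes of all lists, 74 were tested, 36 rose and 8 fell, beside 38.5% of all genes tested called. The limit of the filter given above for genes near silent in dP1 holds here too. Without dP1 replicate 1, 23 rose and 6 fell, and without dP2 replicate 2, 33 rose and 5 fell.

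Some genes were read in 1 set alone. With no read in the 3 dP1 libraries and at least 1 CPM in each dP2 library, 160 of 32113 annotated genes were found. Their median level was 6.12 CPM in dP2. In the reverse direction, 54 genes had no read in dP2 and a median level of 3.46 CPM in dP1, and their number was 93 without dP2 replicate 3. Among the 160, 82 also had no read in the pP NPIP, and 129 had at least 1 CPM in each dP2 POP library. Of the 54, 3 had no read in the pP NPIP. The same counts over all genes were not made, so these shares have no level to be set against. DcMYB113 and DCAR_009118 were the 2 described members of the 160, and no member of the 54 was described.

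The most abundant of them have no description in the sources used here. DCAR_015375 had 37.9, 290 and 474 CPM in dP2, and DCAR_022567 had 263, 153 and 241 CPM. Neither had a read in dP1, so they were at least 2273-fold and 1864-fold higher in dP2 against 3 reads over the dP1 group (FDR = 0.00668 and 0.000662 from edgeR). In dP1 NPIP, DCAR_016803 had 65.7, 105 and 97.7 CPM and DCAR_029209 had 57.7, 58.7 and 34.4 CPM, with no read of either in dP2, at least 771-fold and 428-fold lower in dP2 (FDR = 0.000662 and 0.000912 from edgeR).

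The same sets were compared in the POP of the same roots. There 3395 genes were higher (18.2%) and 2302 lower (12.3%) in dP2, 30.5% of 18670 genes, and 1229, 1306 and 1529 were lower without dP2 POP replicate 2, dP2 POP replicate 3 or dP1 POP replicate 3. Of 17024 genes tested in both tissues, 3246 were called in the same direction in both, 1870 higher and 1376 lower. They were 50.1% of the NPIP calls and 66.6% of the POP calls, and 39 genes were called in opposite directions. The NPIP and POP libraries come from the same roots, so these counts are not independent.

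The difference between the tissues was tested as an interaction over 12 libraries. At an FDR under 0.05 in edgeR, 437 of 19847 genes (2.20%) had a set difference in the NPIP unlike that in the POP, 260 with a higher (1.31%) and 177 with a lower (0.892%) value in the NPIP. With root as a block, there were 496 and 359. Left-out libraries moved the count strongly. It was 40 and 65 without dP1 NPIP replicate 1 or 3, 245 and 99 without dP2 NPIP replicate 1 or 2, 55 and 135 without dP1 POP replicate 1 or 3, and 211, 42 and 44 without dP2 POP replicates 1, 2 and 3, whereas without dP1 POP replicate 2 it was 577 higher and 377 lower. The invertase DCAR_009482 was one of the genes, with a log2FC of −3.33 in the NPIP and 1.70 in the POP (SE 0.45, FDR = 0.0256 from edgeR). For the PAL and 4CL genes, the log2FC was 2.25 to 4.61 in the POP. None of the 5 passed the interaction test in edgeR without root as a block, with an FDR of 0.227 to 0.939. That fit leaves the pairing by root aside. DOF4.6 had a log2FC of 3.35 in the POP (SE 0.48, edgeR FDR = 0.00265), JMJ30 of −2.81 (SE 0.35, FDR = 0.00175) and F3H DCAR_010572 of 3.60 (SE 0.42, FDR = 0.00143).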

How the data were processed

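Single-end RNA-seq reads were trimmed by the authors with Trimmomatic 0.32 and quantified by RSEM through Bowtie2 against carrot gene annotation V1.0, with the RSEM and Bowtie2 versions not given in the sources used here. The deposited expected counts are RSEM estimates per gene and library, not scaled to depth, and they were rounded before testing. The TPM values the authors deposited were used only to compare levels between genes. Genes reaching 1 CPM in 3 or more of the compared libraries were tested with the edgeR 4.0.16 quasi-likelihood test (R 4.3.3, TMM) at an FDR under 0.05, after a check on simulated counts. SE is the absolute log2FC over the square root of F. DESeq2 1.42.0, the likelihood ratio test, other filters and scalings, a replicate block and leaving out each library were alternatives. Intervals and floors (3 counts) cover counting error alone.

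The members and gene lists were chosen with earlier results of these data known, and the study chose most lists on these libraries. Named were the genes of the pigment, marker, clock and heat lists, up to 4 per direction by p in each other list, the largest changes of described genes whose mean log2 CPM reached 3 and that held without any 1 library, described genes read in 1 set alone, and those farthest apart in dP2 replicate 3. Only genes that the study describes have names here, and positions are on its assembly v2.0. POP and NPIP libraries of 1 number come from 1 root. Their deviations from the group means correlated at 0.556, 0.310 and 0.402 in dP2 and at 0.334, 0.436 and 0.326 in dP1, so root was used as a block in the alternative fit of the tissue difference.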

Additional observations from a re-analysis of the deposited data

Results flagged for a closer look

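For 4 of the named genes, the difference of dP2 from dP1 was not the same in the NPIP as in the POP, by the interaction test of edgeR over 12 libraries. The sucrose invertase DCAR_009482 had an interaction of −4.99 on the log2 scale (NPIP minus POP, SE 0.65, FDR = 0.0114), and it passed in each of the 12 fits without 1 library (FDR = 0.00593 to 0.0417) and with root as a block (FDR = 0.0161).

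The pathogen-related gene DCAR_010700 had an interaction of 7.996 (SE 0.68, FDR = 0.00138 from edgeR), with a log2FC of 0.89 in the POP (SE 0.30, FDR = 0.0608). It passed in all 12 fits without 1 library and with root as a block (FDR = 0.00447), but its size rests on 1 read in dP1 NPIP and depends on the prior count.

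WRKY6 DCAR_004233 had an interaction of 2.62 (SE 0.53, FDR = 0.0378 from edgeR), with a log2FC of 5.05 in the NPIP and 2.47 in the POP. It passed in 2 of the 12 fits without 1 library (FDR over all 12 of 0.0226 to 0.0963) and with root as a block (FDR = 0.0255).

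The undescribed gene DCAR_022567 had an interaction of 7.51 (SE 1.06, FDR = 0.0216 from edgeR), which passed in 10 of the 12 fits (FDR of 0.0170 to 0.0520) and with root as a block (FDR = 0.0328). It had no read in dP1 NPIP, so this fitted value depends on the prior count and is no bound.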

How the results depend on the processing

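Between dP2 and dP1 NPIP, other scalings, filters, tools and the replicate block moved neither count of calls by more than 1.5 times. Leaving out 1 library gave 2404 to 3273 genes higher and 2069 to 2904 lower. The replicate numbers of dP2 and dP1 are different roots, and same-numbered libraries did not deviate together (correlations of 0.070, 0.028 and −0.075). With a replicate block, 5440 genes were called. Between pP and dP1 NPIP, 831 genes were higher and 661 lower in DESeq2, 728 and 483 in the likelihood ratio test, 542 and 468 in 1 fit of all 18 libraries, and 1 and 0 with a replicate block (2978 at an unadjusted p under 0.05 in edgeR); without 1 library, 0 to 63 were higher and 0 to 55 lower. Between dP2 and pP NPIP, the ranges without 1 library were 1687 to 2469 higher and 1284 to 2110 lower, and in the POP between dP2 and dP1 they were 2324 to 3229 and 1229 to 2049. For the tissue difference, 778 genes were higher and 756 lower in DESeq2, 855 and 533 in the likelihood ratio test, and 496 and 359 with root as replicate block; without 1 library the ranges were 15 to 577 and 24 to 377. At 5 CPM or more in each library, 54 genes were read in dP2 alone and 12 in dP1 alone, and without 1 library these numbers at 1 CPM were 182 to 212 and 65 to 93. Of the list genes, 29 to 43 were called without 1 library. The cause of these shifts was not tested.

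Of the values of single named genes under the alternatives, 985 kept direction and side of the threshold, 57 lost and 21 gained the call, and 23 turned direction, all for genes not called in the main comparison. Without 1 library, the log2FC was −0.20 (without dP2 replicate 3) to 1.6 for DCAR_001079, −1.44 to 1.44 (without dP1 replicate 2) for DCAR_009912, −1.21 to 0.69 (without dP1 replicate 2) for DCAR_021269 and −1.82 to 0.23 (without dP1 replicate 2) for DCAR_004997. It was −0.41 (without dP1 replicate 3) to 0.84 for DCAR_010639, which also turned without dP1 replicate 1 or dP2 replicate 3 and had −0.026 with no filter on low counts. It was −0.052 (without dP2 replicate 3) to 0.90 for DCAR_010780 and −0.98 to 0.018 (without dP2 replicate 3) for DCAR_010573. For DCAR_010578 it was −0.24 (without dP2 replicate 1) to 0.47, and this gene also turned without dP2 replicate 3 or dP1 replicate 1 or 2. For DCAR_006987 it was −0.32 (without dP2 replicate 2) to 1.47, and it also turned without dP1 replicate 1 or 3. For DCAR_015475 it was −0.91 (without dP2 replicate 3) to 1.19, with a turn also without dP1 replicate 3, and for DCAR_026126 it was −1.06 (without dP2 replicate 3) to 0.93, with a turn also without dP1 replicate 2. With a replicate block, DCAR_009912 had 0.22 and DCAR_015475 had −0.011.

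With 7994328 to 8875733 counts per inner phloem library of dP2 and dP1, 1 CPM stands for few reads, and differences of genes that the filter removed were not assessed in the main comparison. Each set is 3 roots of 1 family at 1 site.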
